A study of Rattus norvegicus with 9 samples.

Results

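The genes described here encode the nuclear subunits of oxidative phosphorylation (OXPHOS) in adipose-derived mesenchymal stem cells of Sprague Dawley rats. They were taken by name from the gene table: every protein-coding gene whose name is Nduf with a letter a, b, c, s or v and a number (complex I), is Sdha, Sdhb, Sdhc or Sdhd (complex II), or begins with Uqcr (complex III), with Cox4 to Cox8 and a letter a to c (complex IV) or with Atp5 (complex V). This gave 81 of the 35362 genes, with 37, 4, 8, 15 and 17 genes for complexes I to V. The protein-coding genes of the mitochondrial chromosome were part of the same rule, but 0 rows answered to it, so the subunits that mitochondrial DNA encodes are not analysed here. The 2 rRNA and 22 tRNA rows of chromosome M are described in their place, a choice made after the values had been seen.

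A set of 3 groups was compared, each of 3 bulk RNA sequencing libraries from untreated cells at passage 3. SASCs came from subcutaneous adipose tissue of the groin, PASCs from perirenal and EASCs from epididymal adipose tissue, and the study's methods describe male rats of 6 weeks. All cells were cultured in medium with fetal bovine serum after collagenase digestion. The protocol describes the RNA replicates as wells of a culture plate, 6 in each group where 3 libraries are analysed here, and all sample titles begin with sd1. Separate animals are not named for the 3 libraries of a group, so the tests measure the spread between libraries, which may be technical. As markers of the labelled cell type, Thy1, Nt5e, Eng, Cd44, Pdgfra, Pdgfrb and Itgb1 were present in all libraries, with a summed level of 4135 to 4262 CPM for SASCs, 3784 to 3959.9 CPM for PASCs and 4958 to 5027 CPM for EASCs, where CPM are counts scaled to library size by TMM (trimmed mean of M-values).

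OXPHOS is the last stage of respiration. Complexes I and II pass electrons from NADH and succinate to ubiquinone, complex III passes them on to cytochrome c, complex IV hands them to oxygen, and complex V (ATP synthase) uses the resulting proton gradient to make ATP. Complexes I, III, IV and V are built from subunits of both genomes, while complex II is wholly nuclear. Adipose stem cells in culture are known to rely much on glycolysis and to build up respiratory capacity when they become adipocytes.

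A total of 17591916 to 30299032 counts fell on genes in each library, and 3 counts were worth 0.104 to 0.159 CPM after TMM scaling, a limit of counting error only. Genes of rRNA took 10.4% to 15.5% of the SASCs counts, 22.4% to 32.9% of the PASCs counts and 15.9% to 40.3% of the EASCs counts, the highest being EASCs replicate 3. Of the 81 genes, 74 passed the filter on low counts and were tested by edgeR's quasi-likelihood test with Benjamini-Hochberg adjustment over all 14770 genes tested. The other 7 were Atp5f1, Cox6a2, Cox6b2, Cox7b2, Cox8b, Cox8c and Ndufs6. Cox6a2, Cox6b2, Cox7b2, Cox8b and Cox8c are named as tissue-restricted isoforms of complex IV, whereas Atp5f1 and Ndufs6 encode subunits known to be part of the complex in most tissues. Atp5f1 had at most 3 counts and Ndufs6 had 0 counts in every library, and the Ndufs6 row spans only 352 bases of transcript (chr2:26471173-26471587 of rn6), so no level of the gene was read from these rows. The Ndufa1 row, with 15 to 36 counts, spans chrX:123803103-124516791, and its level carries the same doubt.

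Relative to the other genes of a library, most nuclear subunit genes were higher in both kinds of visceral cell than in SASCs. In EASCs against SASCs, 56 of the 74 were higher and 0 were lower at an adjusted p under 0.05, where 35.5% of all genes tested were higher and 34.3% lower. In PASCs against SASCs, 61 were higher and 0 were lower, beside 34.6% higher and 34.6% lower of all genes. The 3 libraries of EASCs lay all above the 3 of SASCs for 55 of the 74 genes, beside 5365 of all 14770 genes tested. Those of PASCs did for 58, beside 5266 of all. The changes were small: the median log2 fold change was 0.36 in EASCs and 0.45 in PASCs, beside 0.01 and -0.01 for all genes tested. Both comparisons share the SASCs libraries and are no independent evidence of each other. Without EASCs replicate 3, 58 genes were higher and 0 lower in EASCs.

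These directions are relative to the other genes of each library. With scaling by total counts and no TMM, the median of all genes itself fell to -0.39 in EASCs and -0.33 in PASCs. In EASCs 7 subunit genes were then higher and 8 lower, beside 15.3% higher and 46.7% lower of all genes tested. In PASCs 10 were higher and 4 lower, beside 16.0% and 42.9%. Of the 56 genes called in EASCs, 26 then changed sign and 7 kept both sign and call, namely Atp5b, Ndufa4l2, Ndufa7, Ndufa11, Ndufa12, Uqcrc1 and Uqcrq. Of the 61 called in PASCs, 9 changed sign and 10 kept both, these 7 with Atp5g1, Cox6a1 and Ndufb6. In EASCs against PASCs, 0 calls were left, beside 7.64% higher and 7.14% lower of all genes tested. The log2 fold change was positive for 31 of the 74 genes in EASCs with total counts and for 67 with TMM, and for 52 and 69 in PASCs. With TMM it was positive for 7426 of all 14770 genes tested in EASCs and for 7312 in PASCs. The distance of the subunit genes' median from that of all genes was 0.36 in EASCs and 0.45 in PASCs with total counts, and 0.36 and 0.46 with TMM. With scaling by total counts without rRNA genes, an alternative added after seeing the data, 44 were higher and 5 lower in EASCs, and 58 and 1 in PASCs. Of all genes tested, 29.7% were then higher and 40.1% lower in EASCs, and 31.6% and 37.7% in PASCs. Of the counts left without rRNA genes, the 81 genes held 0.467%, 0.472% and 0.434% for the SASCs libraries, 0.661%, 0.635% and 0.594% for those of PASCs, and 0.595%, 0.570% and 0.557% for those of EASCs. The SASCs libraries lay below all others. EASCs and PASCs overlapped only in that EASCs replicate 1 lay above PASCs replicate 3. Of all counts, with rRNA genes, the share was 0.369% to 0.423% for SASCs, 0.426% to 0.479% for PASCs and 0.333% to 0.479% for EASCs, and EASCs overlapped SASCs. More cells with these transcripts and more transcript per cell cannot be told apart in bulk RNA.

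By the thresholds of the study's methods, a fold change over 2 with an adjusted p under 0.05, few subunit genes counted as differentially expressed genes (DEGs). Uqcrq and Ndufa4l2 passed in EASCs and Uqcrq and Ndufa12 in PASCs, in each case 2 of 74 genes higher and 0 lower. Of all genes tested, 13.6% passed as higher and 14.2% as lower in EASCs, and 12% and 14.9% in PASCs. Taken over both comparisons, 3 subunit genes were DEGs.

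**Figure D1:**
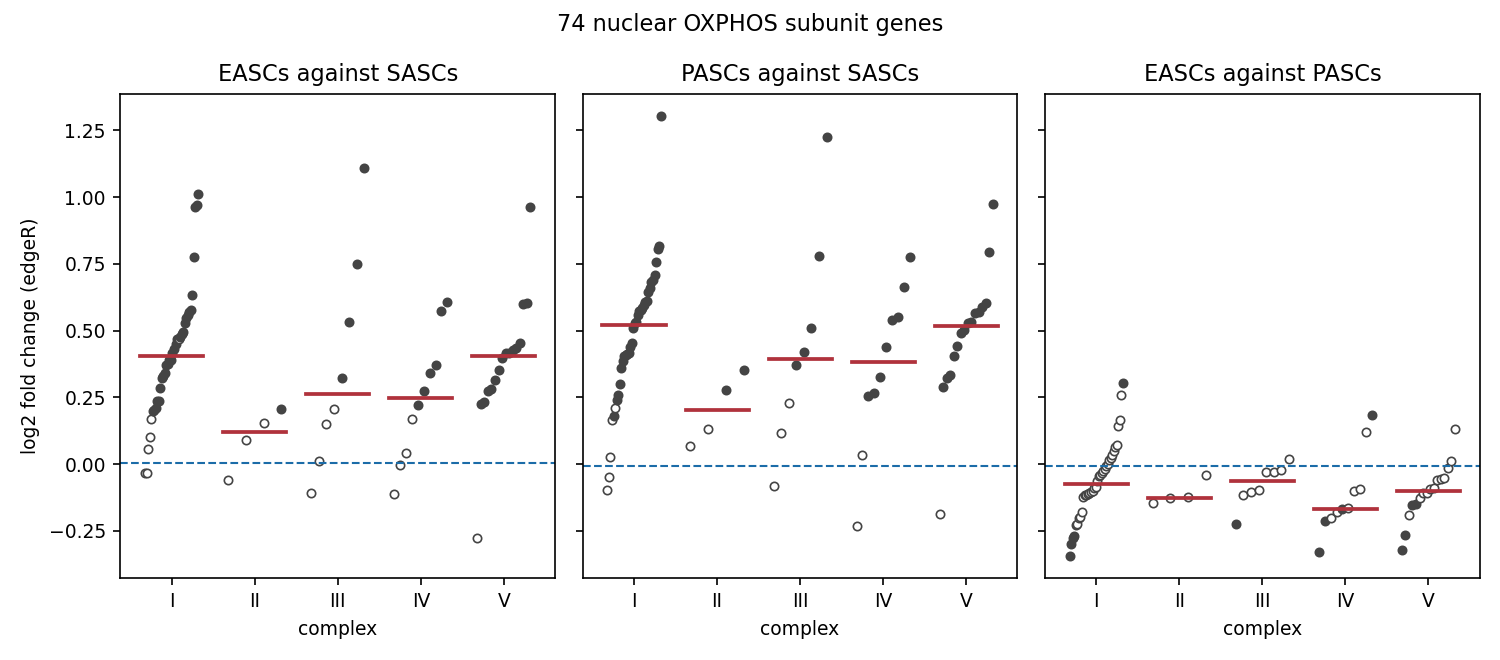
Log2 fold change (edgeR, TMM) of the 74 tested nuclear subunit genes, one point per gene, by complex and comparison; filled points passed an adjusted p under 0.05, red bars are medians of the complex and the dashed line is the median of all genes tested. Most points of the comparisons with SASCs lie above the line, with 56 and 61 filled ones, and complex II lies lowest. With total counts in place of TMM, 7 genes were higher and 8 lower in EASCs, beside 15.3% and 46.7% of all genes tested. In PASCs 10 were higher and 4 lower, beside 16.0% and 42.9%.

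Summed by complex, complex V gained most, and Atp5b alone made up much of that gain. Its 17 genes summed to 1197 to 1309.7 CPM for SASCs, 1882 to 2122 CPM for PASCs and 1859.6 to 1959 CPM for EASCs. It held 37.8% to 38.0% of all subunit counts of SASCs, 41.3% to 41.9% of those of PASCs and 41.6% to 42.1% of those of EASCs. Without Atp5b, the sum for complex V was 1.43 times that of SASCs in PASCs and 1.32 times in EASCs, beside 1.45 and 1.36 for complex III and 1.38 and 1.33 for complex I, and its share was 29.8% to 30.2% for SASCs, 31.0% to 31.3% for PASCs and 30.5% to 30.9% for EASCs. Complex II moved least, with 215 to 231 CPM for SASCs, 234 to 269 CPM for PASCs and 233 to 240.0 CPM for EASCs. Its share of the subunit counts was 6.70% to 6.80% for SASCs, 5.14% to 5.31% for PASCs and 5.09% to 5.26% for EASCs. Complex I summed to 891 to 960.5, 1223 to 1339 and 1208 to 1289.9 CPM in SASCs, PASCs and EASCs. On this TMM scale, in all 5 complexes every PASCs and every EASCs library lay above every SASCs library in the sum. These sums carry no test, since their genes are not replicates. By gene, 30 of 36 tested genes of complex I were higher in EASCs and 31 in PASCs, 1 and 2 of 4 of complex II, 4 and 5 of 8 of complex III, 6 and 8 of 10 of complex IV, and 15 and 15 of 16 of complex V, with 0 lower in each, beside 35.5% higher and 34.3% lower of all genes tested in EASCs and 34.6% each way in PASCs.

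**Figure D2:**
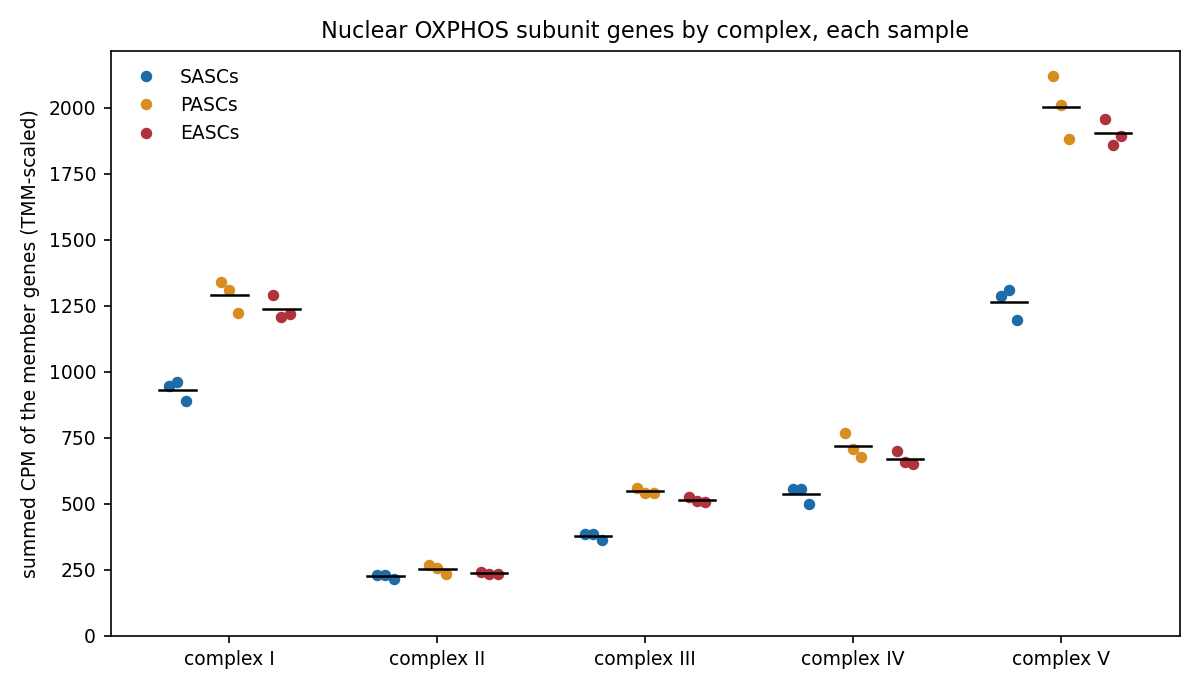
Summed CPM (TMM-scaled) of the member genes of each complex, one point per library and one bar per mean of 3 libraries. On this TMM scale SASCs lie below PASCs and EASCs in all 5 complexes, with the widest gap for complex V, where SASCs reach 1309.7 CPM and EASCs begin at 1859.6 CPM. Without Atp5b, complex V gained a mean of 284 CPM in EASCs, beside 306 CPM for complex I, and 379 CPM in PASCs, beside 358 CPM.

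Per kilobase of transcript, the subunits of complexes IV and V stood at the highest levels. Over all 9 libraries the median level was 39.9 CPM per kb for complex I, 36.8 for complex II, 55.2 for complex III, 95.2 for complex IV and 95.9 for complex V. Atp5b, the catalytic beta subunit of ATP synthase, was the most abundant at 349 CPM per kb, and Cox6a1, the widely expressed isoform of its complex IV subunit, followed at 265 CPM per kb.

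Uqcrq, a small subunit of complex III that lies near its ubiquinone-binding side, showed the largest rise in EASCs. Its row lies at chr10:38779132-38782487 (rn6, minus strand). It was at 52.8, 54.1 and 59.9 CPM across the SASCs libraries, 130.1, 128 and 131 CPM across those of PASCs and 118, 124 and 118 CPM across those of EASCs. The groups with visceral origin lay far above SASCs, with no overlap. The log2 fold change was 1.11 ± 0.058 (SE) in EASCs and 1.22 ± 0.058 in PASCs, with edgeR adjusted p = 1.34e-15 and 1.55e-16. EASCs against PASCs did not pass, at -0.11 ± 0.056 with adjusted p = 0.133, although each EASCs library lay below each PASCs library.

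Ndufa12, an accessory subunit of complex I, rose the most in PASCs. It was at 17.1, 17.4 and 15.5 CPM across the SASCs libraries, 43.2, 42.4 and 37.9 CPM across those of PASCs and 34.8, 28.7 and 34.1 CPM across those of EASCs. All 3 groups were apart, in the order SASCs, EASCs, PASCs. The log2 fold change was 1.31 ± 0.086 in PASCs and 0.96 ± 0.087 in EASCs, and -0.34 ± 0.081 in EASCs against PASCs, with edgeR adjusted p = 0.00162 for the last. Ndufa7 and Ndufa11, accessory subunits as well, rose by 0.97 and 0.78 in EASCs and by 0.80 and 0.82 in PASCs, all with no overlap with SASCs.

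Atp5b was at 390.1, 391 and 344 CPM across the SASCs libraries, 784, 745 and 682 CPM across those of PASCs and 749, 715 and 728 CPM across those of EASCs. It rose by nearly the same amount in both visceral groups, at 0.96 ± 0.061 and 0.97 ± 0.062 log2, with no overlap with SASCs, while EASCs and PASCs overlapped and differed by -0.01 ± 0.061 (adjusted p = 0.905). Without Atp5b, the share of the remaining subunit genes in the counts without rRNA was 0.387% to 0.418% for SASCs, 0.505% to 0.558% for PASCs and 0.467% to 0.501% for EASCs.

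**Figure D3:**
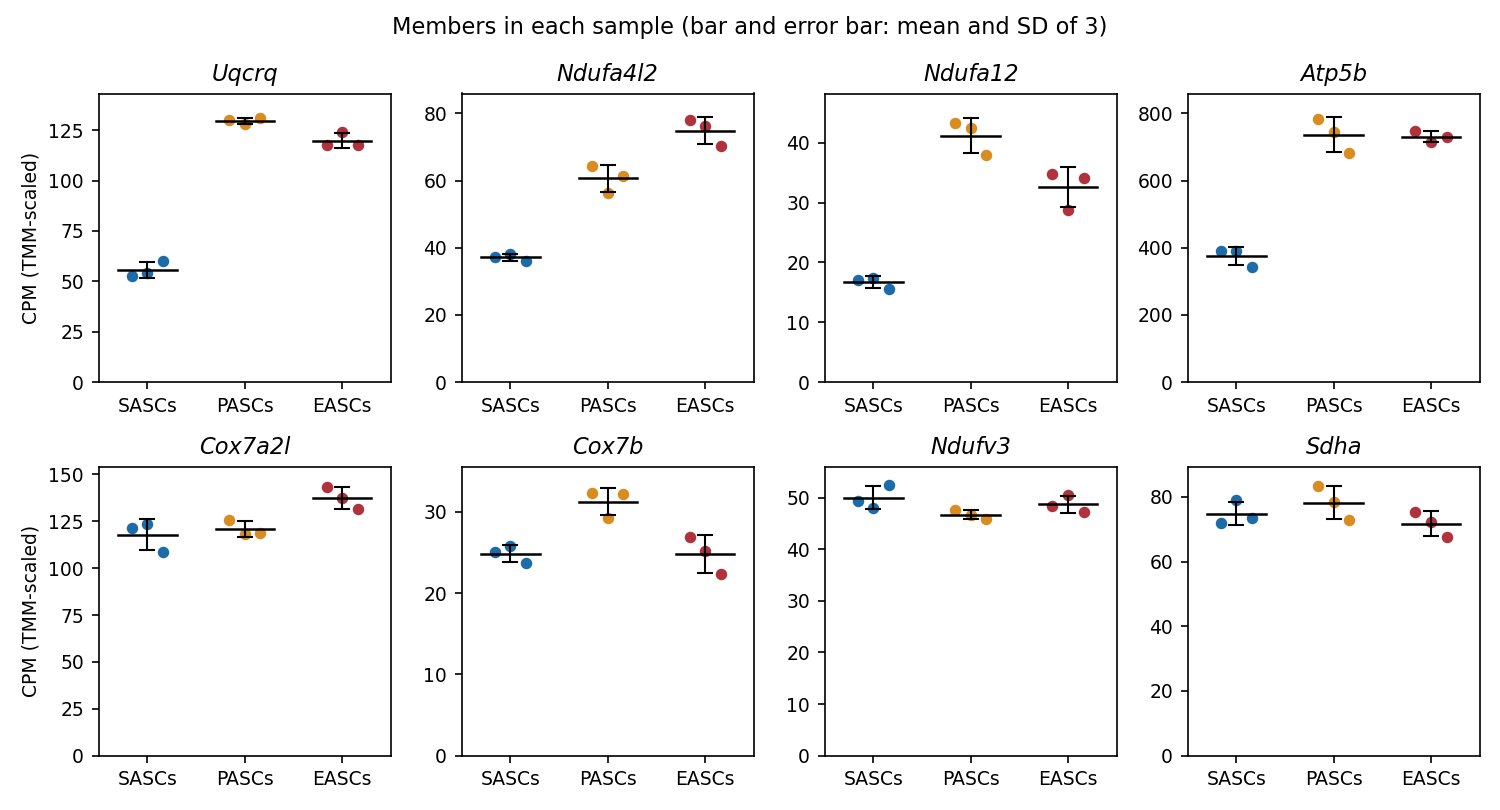
TMM-scaled CPM of 8 subunit genes, one point per library, with the mean and SD of 3 libraries per group. Uqcrq, Ndufa4l2, Ndufa12 and Atp5b lie in SASCs below all other libraries, Cox7a2l is highest in EASCs, Cox7b is highest in PASCs, and the Ndufv3 and Sdha libraries lie close together in all groups. With total counts in place of TMM, the direction of Cox7a2l in EASCs against SASCs turned to -0.17.

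To show the promoters of genes that rose together, the 250 bases before the start of 4 of them are printed here, from RefSeq for the GRCr8 build, 5′ to 3′ on the strand of the gene. The genes were chosen among those with the largest changes, after their values and motif letters were seen. Most were picked because they hold a motif, so they do not show how often a motif occurs. Capitals mark the letters of an ETS core (CCGGAAGT), the family of GABP, or of an NRF1 core (GCGCATGC), on either strand. NRF1 and GABP are transcription factors known to act on many nuclear genes of the respiratory chain.
Uqcrq, chr10:38089979-38090228, minus strand: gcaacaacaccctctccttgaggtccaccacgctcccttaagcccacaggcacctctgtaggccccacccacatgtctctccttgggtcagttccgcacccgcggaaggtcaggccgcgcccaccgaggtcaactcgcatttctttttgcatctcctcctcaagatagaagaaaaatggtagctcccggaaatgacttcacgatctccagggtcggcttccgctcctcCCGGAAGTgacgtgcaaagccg
Ndufa11, chr9:1637364-1637613, plus strand: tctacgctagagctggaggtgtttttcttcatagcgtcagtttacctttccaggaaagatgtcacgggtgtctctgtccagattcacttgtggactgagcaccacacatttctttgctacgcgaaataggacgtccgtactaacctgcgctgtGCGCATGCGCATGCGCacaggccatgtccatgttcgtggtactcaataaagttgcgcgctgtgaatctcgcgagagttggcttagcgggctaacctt
Uqcrc1, chr8:118467973-118468222, plus strand: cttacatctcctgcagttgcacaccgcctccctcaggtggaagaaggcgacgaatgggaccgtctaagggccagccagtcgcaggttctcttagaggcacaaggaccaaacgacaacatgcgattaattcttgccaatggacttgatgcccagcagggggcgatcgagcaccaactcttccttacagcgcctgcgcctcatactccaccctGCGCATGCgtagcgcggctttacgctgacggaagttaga
Ndufa12, chr7:30658066-30658315, plus strand: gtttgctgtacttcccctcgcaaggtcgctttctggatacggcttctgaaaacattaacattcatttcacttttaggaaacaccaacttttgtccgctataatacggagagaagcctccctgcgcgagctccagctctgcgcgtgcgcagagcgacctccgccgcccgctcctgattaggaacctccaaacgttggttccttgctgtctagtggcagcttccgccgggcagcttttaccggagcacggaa
Uqcrq holds the ETS letters 22 bases before its start, Ndufa11 holds overlapping copies of the NRF1 letters on both strands, Uqcrc1 holds them 39 bases before its start, and neither set of letters is in this window of Ndufa12.

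A promoter was matched for 71 of the 81 genes. In windows of 300 bases, 250 before and 50 after the start, the NRF1 letters were in 9 of 71 (12.7%) and in 2.47% of all 33469 rat promoters of the table. The ETS letters were in 7 of 71 (9.86%) and in 3.81% of all. Either was in 16 of 71, which is 22.5%, and in 6.07% of all. The 2 sets of letters do not overlap each other, and 0 members held both. A match is a description of the letters and not of binding.

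Among the core subunits of complex I that the nucleus encodes are those that carry its flavin and iron-sulfur clusters. Of the core genes, Ndufv1, Ndufv2, Ndufs1, Ndufs3, Ndufs7 and Ndufs8 were each higher in EASCs and in PASCs after TMM. With total counts, Ndufs1, Ndufs7 and Ndufv1 turned to -0.19, -0.16 and -0.10 in EASCs, and Ndufs1 to -0.15 in PASCs. None of these core genes kept both sign and call with total counts in either comparison. Of these, Ndufs8 changed most, at 0.57 ± 0.093 in EASCs and 0.66 ± 0.093 in PASCs, and was at 20.1, 21.1 and 16.6 CPM across the SASCs libraries, 33.6, 28.8 and 29.1 CPM across those of PASCs and 27.7, 27.1 and 31.4 CPM across those of EASCs. Ndufs1, the largest of these subunits, changed least of those named here, at 0.20 ± 0.070 (adjusted p = 0.0123) and 0.18 ± 0.070 (adjusted p = 0.0251), and its call in EASCs was lost without EASCs replicate 1 (0.16) and in PASCs without any 1 of SASCs replicates 2 and 3 and PASCs replicates 1 and 2 (0.15 to 0.16). Ndufs3 stood at 0.50 and 0.61, Ndufv2 at 0.45 and 0.42, and Ndufv1 at 0.28 and 0.51. Ndufs7 at 0.24 in EASCs lost its call without SASCs replicate 3 (0.17). Of 29 tested accessory and related genes of complex I, 23 were higher in EASCs and 24 in PASCs, beside 35.5% and 34.6% of all genes tested, with medians of 0.42 and 0.53.

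The 4 subunits of complex II, which is also an enzyme of the citric acid cycle, moved little. Sdha, the flavoprotein that oxidises succinate, was at 72.0, 78.9 and 73.6 CPM across the SASCs libraries, 83.3, 78.3 and 73.0 CPM across those of PASCs and 75.4, 72.2 and 67.5 CPM across those of EASCs, and the groups overlapped. Its log2 fold change was -0.06 ± 0.063 in EASCs and 0.07 ± 0.063 in PASCs, with edgeR adjusted p = 0.401 and 0.353. In EASCs it passed as lower with total counts (-0.45) and with total counts without rRNA genes (-0.18). Sdhb, the iron-sulfur subunit, was higher in both, at 0.21 ± 0.069 (adjusted p = 0.0102) and 0.35 ± 0.069 (adjusted p = 6.33e-05). Sdhd, a membrane anchor, passed in PASCs at 0.28 ± 0.069 but not in EASCs at 0.15 ± 0.070. The EASCs value passed with a replicate block (0.15), with scaling on nuclear genes without rRNA (0.16) and without EASCs replicate 2 (0.21). With total counts Sdhb in EASCs turned to -0.19 and Sdhd in PASCs to -0.05. Sdhc, the other anchor, passed in neither, at 0.09 and 0.13, but passed in PASCs without SASCs replicate 1 (0.19) or PASCs replicate 3 (0.20).

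Some subunits exist as isoforms that different cells or oxygen levels favour. Cox6a2, Cox7b2, Cox8b and Cox8c, isoforms known from muscle, brown fat or testis, were at or near 0: Cox6a2 reached at most 0.552 CPM and Cox8b 0.0419 CPM, and Cox7b2 and Cox8c had 0 counts in all libraries. Cox6b2, known from testis, had 9, 20 and 9 counts in the EASCs libraries (0.377, 0.811 and 0.403 CPM) and at most 2 counts in each of the other libraries, so EASCs lay apart, but it did not pass the filter on low counts and was not tested. Their widely expressed partners Cox6a1, Cox7b and Cox8a stood at 187, 55.5 and 138 CPM per kb in SASCs. Cox6a1 rose by 0.61 log2 in EASCs and 0.78 in PASCs, Cox8a by 0.28 and 0.44, and Cox7a2 by 0.37 and 0.55, where Cox8a and Cox7a2 turned to -0.12 and -0.01 in EASCs with total counts. The 3 genes of the c subunit of ATP synthase, which encode the same mature protein, stood at 31.7, 55.1 and 48.4 CPM per kb (Atp5g1), 147, 212 and 199 (Atp5g2) and 102, 148 and 137 (Atp5g3) in SASCs, PASCs and EASCs. Atp5g1 rose most of them, by 0.60 and 0.79, Atp5g2 by 0.44 and 0.53, and Atp5g3 by 0.43 and 0.53. With total counts, the values in EASCs were 0.20, 0.036 and 0.025, none past the threshold, and in PASCs Atp5g2 at 0.20 and Atp5g3 at 0.21 lost their calls while Atp5g1 kept its own. Cox6a1 lost its call in EASCs (0.22), as did Cox8a (0.11) and Cox7a2 (0.23) in PASCs.

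Ndufa4 and its paralog Ndufa4l2 carry the name of complex I, although Ndufa4 is now known as a subunit of complex IV, and Ndufa4l2 is known as a target of the hypoxia-inducible factor. Ndufa4l2 was at 37.2, 38.2 and 35.9 CPM across the SASCs libraries, 64.2, 56.3 and 61.3 CPM across those of PASCs and 78.0, 76.2 and 70.2 CPM across those of EASCs. The 3 groups were apart, EASCs highest, with log2 fold changes of 1.01 ± 0.066 in EASCs, 0.71 ± 0.066 in PASCs and 0.30 ± 0.064 in EASCs against PASCs (edgeR adjusted p = 0.000476), the last of which lost its call with total counts (0.24). Ndufa4 was at 36.9, 30.8 and 33.2 CPM across the SASCs libraries, 46.6, 46.3 and 44.0 CPM across those of PASCs and 45.1, 40.3 and 41.1 CPM across those of EASCs. Its log2 fold change was 0.32 in EASCs, where total counts gave -0.07, and 0.44 in PASCs, where they gave 0.12 and the call was lost. The Ndufa4l2 row (chr7:70821904-70825017 of rn6) overlaps that of Shmt2 on the other strand, which held 3713 counts on average and rose by 1.66 log2 in PASCs and also rose in EASCs. The sources used here do not say that the counting used the strand, so reads of the shared bases cannot be told apart.

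Cox4i1 and Cox4i2, the isoforms of the subunit of complex IV that responds to ATP, lie outside the name rule and were taken from a list of respiratory chain genes that it leaves out. Cox4i1 was at 150.2, 150.4 and 124 CPM across the SASCs libraries, 188, 176 and 181 CPM across those of PASCs and 179, 164 and 166 CPM across those of EASCs. It rose by 0.26 ± 0.064 in EASCs, where total counts gave -0.14, and 0.36 ± 0.064 in PASCs, where they gave 0.036 and the call was lost. Cox4i2, known to be favoured at low oxygen, was at 5.35, 6.15 and 7.22 CPM across the SASCs libraries, 5.66, 5.50 and 7.10 CPM across those of PASCs and 7.62, 8.92 and 8.90 CPM across those of EASCs. It was higher in EASCs at 0.45 ± 0.15 against SASCs (adjusted p = 0.00777) and 0.49 ± 0.15 against PASCs (adjusted p = 0.0112), and PASCs differed from SASCs by -0.04 ± 0.15 (adjusted p = 0.829). The call against SASCs was lost without SASCs replicate 1 (0.34), and that against PASCs without PASCs replicate 1 (0.44) or 2 (0.42). With total counts both were lost, at 0.050 and 0.41. Of the list's other genes, Ndufab1, the acyl carrier of complex I, rose by 0.75 and 0.88 in EASCs and PASCs, and Cyc1, which holds the heme of cytochrome c1, by 0.74 and 0.85. With total counts both lost their calls in EASCs, at 0.34 for Ndufab1 and 0.35 for Cyc1. Cytochrome c itself (Cycs) rose by 0.21 and 0.25, which turned to -0.19 and -0.08 with total counts and whose call in EASCs was lost without EASCs replicate 1 (0.13). Usmg5, a small subunit of ATP synthase, rose by 0.36 in EASCs, where total counts gave -0.02, and by 0.57 in PASCs, where they gave 0.25 and the call was lost.

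Atpif1, the inhibitor of ATP hydrolysis by complex V, parted the visceral groups. It was at 52.8, 53.6 and 47.5 CPM across the SASCs libraries, 74.7, 71.5 and 72.4 CPM across those of PASCs and 57.6, 52.1 and 59.9 CPM across those of EASCs. PASCs lay above all other libraries, at 0.50 ± 0.065 log2 against SASCs, and EASCs lay -0.37 ± 0.065 from PASCs (edgeR adjusted p = 5.77e-05). With total counts the call of PASCs against SASCs was lost (0.18). EASCs against SASCs was 0.14 ± 0.066 with adjusted p = 0.0674, and passed without EASCs replicate 2 (0.20).

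Between the visceral groups the subunit genes differed little. In EASCs against PASCs, 2 of 74 genes were higher and 13 lower, beside 16.1% and 14.5% of all genes tested, so the share that was higher was below and the share that was lower was near that of all genes. Past the fold threshold were 0 genes in either direction, beside 5.19% and 2.2% of all genes. The median log2 fold change was -0.10, beside -0.01 for all genes. The log2 fold change was positive for 15 of the 74 genes, beside 7241 of all 14770 genes tested. The count of lower genes rested on single libraries: it was 3 without PASCs replicate 1, 7 without PASCs replicate 2, 6 without EASCs replicate 2 or 3, 0 with total counts, and 27 with total counts without rRNA genes. Of all genes tested, 7.14% were lower with total counts and 19.7% with total counts without rRNA genes. The genes that were higher were Ndufa4l2 and Cox7a2l.

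Cox7a2l, also known as a factor that joins complexes III and IV into supercomplexes, was at 122, 124 and 109 CPM across the SASCs libraries, 126, 118 and 119 CPM across those of PASCs and 143, 138 and 131 CPM across those of EASCs. It was the one gene past the threshold in EASCs and not in PASCs, at 0.22 ± 0.058 against SASCs, where PASCs stood at 0.04 ± 0.059 (adjusted p = 0.606), and the difference between EASCs and PASCs was 0.19 ± 0.058 (adjusted p = 0.0165). That last call was lost without PASCs replicate 2 (0.17), EASCs replicate 1 (0.15) or EASCs replicate 2 (0.18), and total counts turned the change against SASCs to -0.17. Of the lower genes, Ndufa12 changed most, and Cox7b, a small subunit of complex IV, followed. Cox7b was at 25.1, 25.8 and 23.7 CPM across the SASCs libraries, 32.3, 29.3 and 32.3 CPM across those of PASCs and 26.9, 25.2 and 22.4 CPM across those of EASCs, which set PASCs alone above SASCs (0.33 ± 0.082), left EASCs near 0 (adjusted p = 0.978) and gave -0.33 ± 0.082 between the visceral groups (adjusted p = 0.00245). With total counts Cox7b was at -0.39 in EASCs against SASCs, past the threshold, and at 0.0071 in PASCs against SASCs and -0.40 in EASCs against PASCs, both no longer past it. Atp5i, Ndufb2 and Ndufc1 stood at -0.32, -0.30 and -0.28, with adjusted p = 0.0285, 0.0227 and 0.0425. Atp5i lost its call without PASCs replicate 1 (-0.20) or 2 (-0.33) or EASCs replicate 2 (-0.33) or 3 (-0.26), Ndufb2 without PASCs replicate 1 (-0.20) or EASCs replicate 2 (-0.23) or 3 (-0.28), and Ndufc1 without any 1 of the 6 libraries (-0.24 to -0.30). In EASCs against SASCs, Atp5i at 0.28 turned to -0.11 with total counts and lost its call without SASCs replicate 1 (0.23) or 3 (0.27) or EASCs replicate 1 (0.23) or 2 (0.28). The call was also lost by DESeq2 (0.26) and with total counts without rRNA genes (0.16).

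Cox6c, Cox7b, Cox7c, Ndufb3, Sdhd and Uqcr11 were past the threshold in PASCs and not in EASCs, and of these only Cox7b, Cox7c (-0.21) and Uqcr11 (-0.22) also passed in EASCs against PASCs. The 12 genes past it in neither group, named after their values were seen, were Atp5s, Cox7a2l2, Ndufa1, Ndufa10, Ndufa10l1, Ndufa6, Ndufv3, Sdha, Sdhc, Uqcrb, Uqcrc2 and Uqcrh. Ndufv3, a small subunit of the NADH-binding arm of complex I, was at 49.4, 48.0 and 52.4 CPM across the SASCs libraries, 47.6, 46.5 and 45.8 CPM across those of PASCs and 48.4, 50.5 and 47.3 CPM across those of EASCs, at -0.03 ± 0.063 and -0.10 ± 0.063 log2. Uqcrh, the hinge protein of complex III, stood at -0.11 ± 0.076 and -0.08 ± 0.076. Atp5s is not a part of ATP synthase in the strict sense.

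Reads of a subunit gene could also fall on copies. The table has 139 rows whose description names a subunit and whose symbol marks a copy or an unnamed locus, and together they held 3.28% as many counts as the members. Cox6b1 and Ndufa13, which are not typed as protein-coding, were near 0, while loci whose descriptions name them were not. The Cox6b1-like locus LOC688869 was at 53.6, 59.5 and 57.3 CPM across the SASCs libraries, 68.9, 71.3 and 62.9 CPM across those of PASCs and 66.0, 65.5 and 61.1 CPM across those of EASCs, and the Ndufa13-like locus LOC100911483 at 35.5, 36.3 and 33.9 CPM across the SASCs libraries, 49.3, 43.1 and 39.5 CPM across those of PASCs and 42.0, 42.4 and 37.0 CPM across those of EASCs. Their log2 fold changes were 0.18 and 0.20 in EASCs and 0.26 and 0.32 in PASCs, each with an adjusted p under 0.05. These loci were chosen after their values were seen. Of the members, 11 overlap another gene with a mean of at least 100 counts, Ndufs3, Ndufa10, Atp5j and Cox7b among them.

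The tRNA rows of the mitochondrial chromosome were lower, relative to the nuclear subunit genes, in both visceral groups. Rows of the 22 mitochondrial tRNA genes, each 60 to 75 bases long, held, per count on the nuclear subunit genes, 0.0334, 0.0310 and 0.0348 counts for the SASCs libraries, 0.0156, 0.0176 and 0.0157 for those of PASCs, and 0.0175, 0.0169 and 0.0154 for those of EASCs. SASCs lay above all other libraries, by a ratio within each library that no scaling changes, and 3 libraries against 3 cannot give an exact permutation p below 0.1. Of the 16 tRNA rows tested, 9 were lower and 1 higher in EASCs and 9 lower and 1 higher in PASCs, with medians of -0.68 and -0.57 log2, beside 34.3% lower and 35.5% higher of all genes tested in EASCs and 34.6% each way in PASCs. Trnn, for asparagine, was at 8.17, 8.36 and 7.96 CPM across the SASCs libraries, 3.79, 4.64 and 3.65 CPM across those of PASCs and 3.39, 2.88 and 4.16 CPM across those of EASCs, and its log2 fold change was -1.24 ± 0.16 in EASCs and -1.01 ± 0.16 in PASCs (edgeR adjusted p = 1.74e-07 and 3.08e-06). Trny, for tyrosine, stood at -1.20 and -0.93. Of the 8 tested rows on the minus strand, 6 were lower in each comparison, and of the 8 on the plus strand 3, a share near that of all genes. The row that rose, Trnt for threonine, held 6 to 38 counts. Reads of neighbouring transcripts can overlap rows this short, and their part in these values was not tested.

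The mitochondrial rRNA varied between libraries of one group. Rnr2, the large rRNA (1094 to 2664 of chromosome M), was at 1347, 1437 and 1437 CPM across the SASCs libraries, 1606, 1790.0 and 1155 CPM across those of PASCs and 1294, 775 and 1891 CPM across those of EASCs, and overlapped between all groups, with log2 fold changes of -0.09 ± 0.17 in EASCs and 0.11 ± 0.17 in PASCs. Without EASCs replicate 3, the value was -0.44 in EASCs against SASCs and -0.55 in EASCs against PASCs, both past the threshold, and with total counts the former was -0.56 and passed as well. Per count on nuclear subunit genes, the SASCs libraries held 0.396, 0.417 and 0.454 counts on Rnr2, those of PASCs 0.317, 0.371 and 0.253, and 0.274, 0.173 and 0.420 in EASCs, so PASCs lay below SASCs without overlap and EASCs replicate 3 lay within the range of SASCs. Rnr1, the small rRNA, was at 473, 417 and 589.8 CPM across the SASCs libraries, 645, 805 and 491 CPM across those of PASCs and 668, 358 and 1164 CPM across those of EASCs. Its log2 fold change in EASCs was 0.57 ± 0.22 (adjusted p = 0.0246) although the groups overlapped, and it was 0.06 without EASCs replicate 3. The call was also lost without SASCs replicate 1 (0.54) or 2 (0.46) and by DESeq2 (0.55), and with total counts the value was 0.076. EASCs replicate 3 also had the highest share of rRNA genes of all, 40.3%, and EASCs replicate 2, with 15.9%, had the lowest Rnr1 and Rnr2. The part of this share in the rRNA result was not tested.

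**Figure D4:**
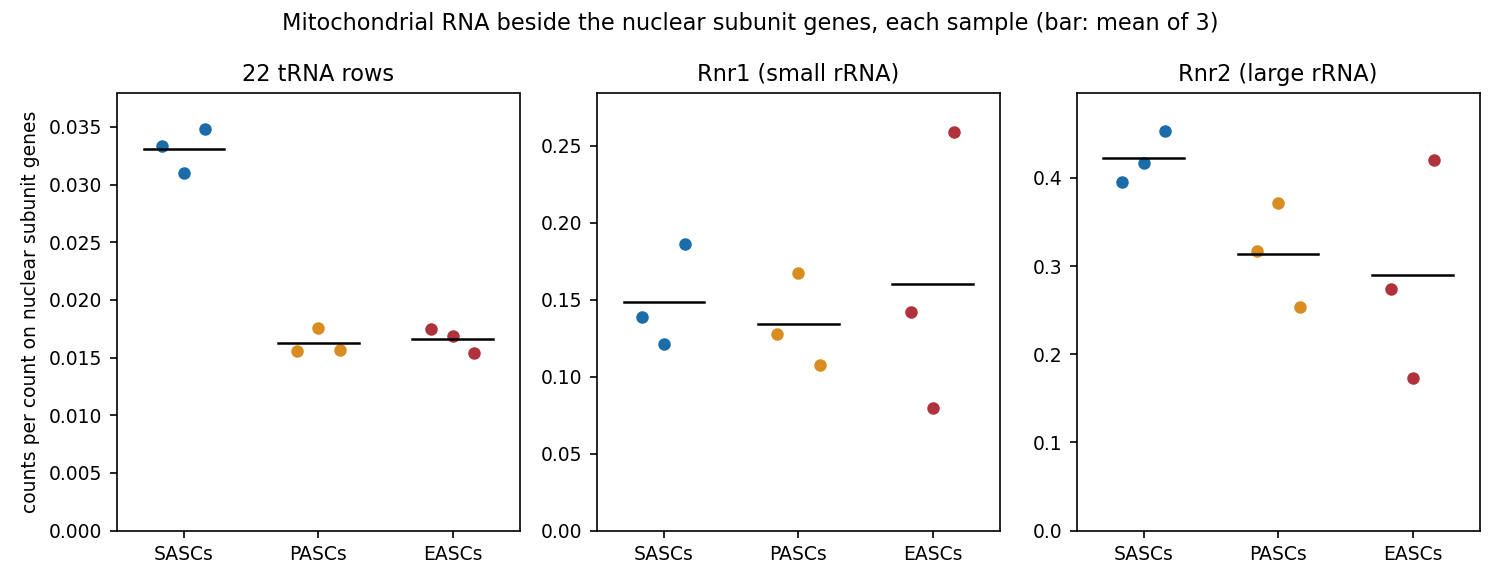
Counts on the 22 tRNA rows, Rnr1 and Rnr2 of chromosome M per count on the 81 nuclear subunit genes, one point per library and one bar per mean of 3 libraries. The tRNA rows lie at 0.0310 to 0.0348 in SASCs and at 0.0154 to 0.0176 in the other libraries, while for Rnr1 all groups overlap and for Rnr2 only EASCs overlap both others.

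Other mitochondrial genes were read by list, beside the 35.5% higher and 34.3% lower of all genes tested in EASCs and 34.6% each way in PASCs. Of 68 tested genes of mitochondrial ribosomal proteins, 46 were higher and 3 lower in EASCs (median 0.40) and 57 higher and 1 lower in PASCs (median 0.55). Among them Mrpl54 stood at 1.12 and 1.18, and Mrps26 at 0.59 and 1.15. Of 22 genes of the mitochondrial envelope, import and chaperones, 18 were higher and 1 lower in each comparison (medians 0.53 and 0.55), with Chchd6, a part of the cristae-forming complex, at 1.52 and 1.56, Slc25a5, an ADP/ATP carrier, at 0.86 and 1.07, and Tomm40, the import pore, at 0.95 and 0.96. Of 16 genes of the citric acid cycle and pyruvate dehydrogenase, 10 (62.5%) were higher and 3 lower in EASCs and 11 (68.8%) and 3 in PASCs, with Idh3a at 1.01 and 0.88, Fh at 0.79 and 0.92 and Mdh2 at 0.80 and 0.84.

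Genes that assemble the chain had medians of 0.08 in EASCs and 0.13 in PASCs. Of 37 assembly factors, 11 (29.7%) were higher and 5 (13.5%) lower in EASCs, beside 35.5% and 34.3% of all genes tested, and 14 (37.8%) and 5 (13.5%) in PASCs, beside 34.6% and 34.6%. Uqcc2, a factor of complex III, stood at 0.97 and 1.39, Cox17, a copper chaperone of complex IV, at 0.77 and 0.96, and Coa5 at -0.77 and -1.07. Of 17 genes that copy and transcribe mitochondrial DNA, 3 (17.6%) were higher and 4 (23.5%) lower in EASCs and 4 and 3 in PASCs. Mgme1, a nuclease of replication, stood at 0.62 and 1.09, Tefm, the elongation factor, at 0.62 and 0.64, and Rrm2b, which supplies nucleotides, at -0.28 (adjusted p = 0.245) and -0.79. Of 19 genes that process mitochondrial RNA, 6 were higher and 4 lower in both, with Rexo2 at 0.69 and 0.74, Fastkd1 at -0.81 and -0.57 and Ptcd1 at 0.39 and 0.54.

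**Figure D5:**
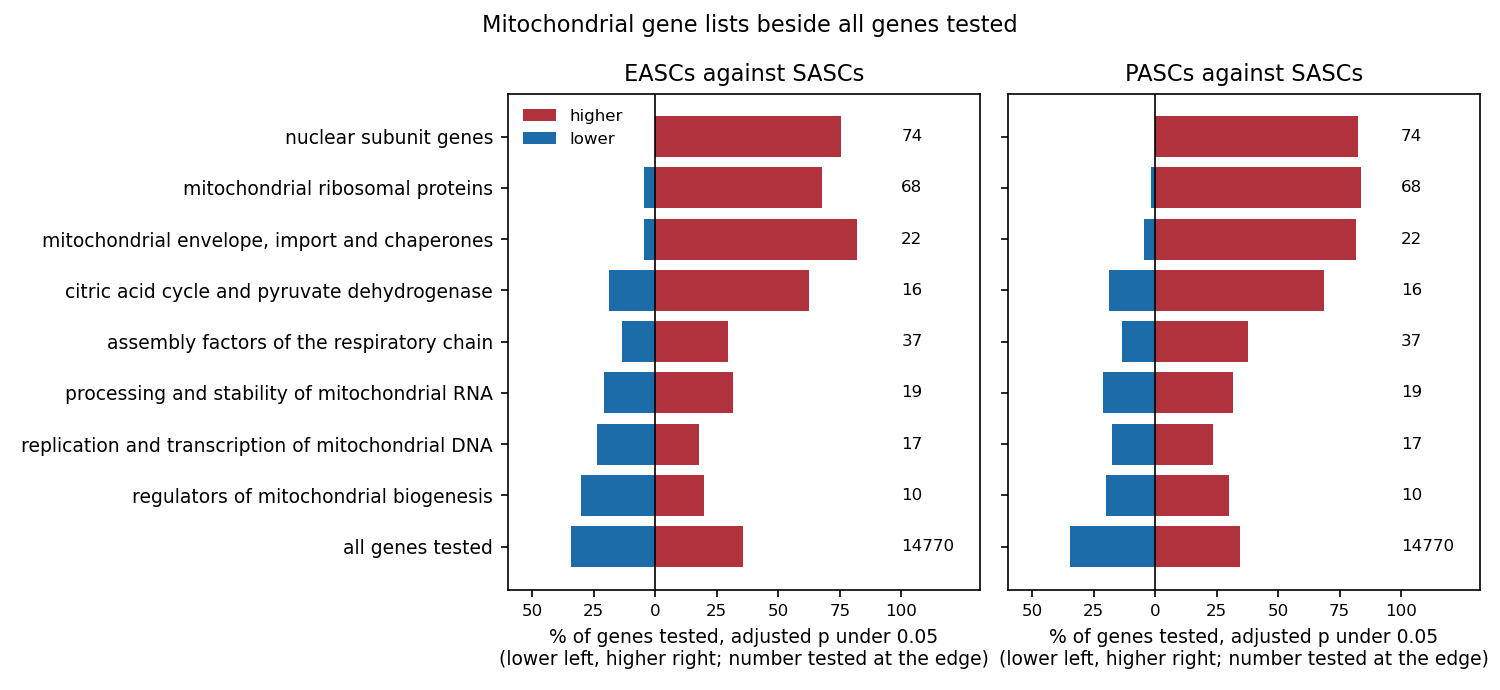
Percent of the tested genes of each list that were higher (right) or lower (left) at an adjusted p under 0.05 after TMM, in EASCs and in PASCs against SASCs, with the number of genes tested at the edge. The lists of subunits, ribosomal proteins and envelope reach 67.6% to 83.8% higher, beside 35.5% and 34.6% of all genes, while the lists below the citric acid cycle reach 17.6% to 37.8%. With total counts, 7 and 10 of 74 subunit genes were higher, beside 15.3% and 16.0% of all genes tested.

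Among regulators of mitochondrial biogenesis, called genes lay in both directions, in shares below those of all genes tested. Ppargc1a, the coactivator PGC-1 alpha, had 35, 41 and 29 counts across the SASCs libraries, 2, 11 and 0 across those of PASCs and 0, 3 and 4 across those of EASCs, and was lower in EASCs and PASCs with edgeR adjusted p = 1.59e-05 and 8.9e-05. Its paralog Ppargc1b, at 2.33, 1.49 and 1.32 CPM across the SASCs libraries, 0.536, 0.336 and 0.635 CPM across those of PASCs and 0.251, 0.527 and 0.760 CPM across those of EASCs, was lower in both, at -1.75 ± 0.42 and -1.80 ± 0.42 log2. Esrra, a nuclear receptor that acts on OXPHOS genes, was at 29.7, 31.9 and 27.9 CPM across the SASCs libraries, 71.0, 65.1 and 55.6 CPM across those of PASCs and 55.0, 57.2 and 57.5 CPM across those of EASCs and rose by 0.92 ± 0.078 and 1.10 ± 0.077, with no overlap with SASCs. Of the 10 genes of this list that were tested, 2 were higher and 3 lower in EASCs, beside 35.5% and 34.3% of all genes, and 3 higher and 2 lower in PASCs, beside 34.6% each way.

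Genes of uncoupling and brown fat were few. Of 4 tested, 2 were higher and 1 lower in each comparison: Ucp2, a widely expressed relative of the uncoupling protein, stood at 3.05 and 1.98 log2, Prdm16 stood at 1.91 and 1.97, and the lower gene was Ppargc1a. Ucp1, the uncoupling protein of brown fat, had 1 count in 1 PASCs library and 0 in the others. Of 16 hypoxia targets, Ndufa4l2 and Cox4i2 included, 10 (62.5%) were higher and 5 lower in EASCs, beside 35.5% and 34.3% of all genes, and 8 and 4 in PASCs, beside 34.6% each way. Car9 stood at 1.29 and 2.01, while Adm stood at -2.61 and -3.26 and Egln3 at -2.01 and -2.48.

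Markers of other cell types and states also differed between the groups, not all in the direction of the subunit genes. Of all genes tested, 35.5% were higher and 34.3% lower in EASCs against SASCs, and 34.6% each way in PASCs. All 7 markers of dividing cells (Mki67, Top2a, Ccnb1, Cdk1, Plk1, Aurkb and Bub1) were higher in both visceral groups. Their summed levels were 70.3 to 70.5 CPM for SASCs, 587 to 597 CPM for PASCs and 346 to 357 CPM for EASCs. By mean share of subunit counts the groups stood in the same order, while the smooth muscle, mesothelial and leukocyte sums were highest in EASCs. All 5 smooth muscle markers were higher, with sums of 159 to 170.0 CPM for SASCs, 2829 to 3126 CPM for PASCs and 6317 to 6685 CPM for EASCs. Of 7 mesothelial markers, 6 were tested and higher, with sums of 18.4 to 20.02, 94.5 to 101 and 129 to 141 CPM, Krt18 at 0 in SASCs and Krt19 at 8 counts or fewer in all libraries. All 5 adipocyte markers were lower, with sums of 153 to 166, 42.0 to 48.2 and 23.6 to 24.6 CPM. All 5 leukocyte markers were higher. They summed to 41.2 to 42.8, 65.3 to 67.9 and 98.2 to 99.7 CPM, endothelial ones to 41.5 to 43.5, 11.1 to 13.5 and 27.9 to 30.7, and skeletal muscle ones to 6.98 to 8.91, 19.0 to 19.5 and 15.0 to 19.0, with Myog at 0 in all. The part of dividing, muscle-like or mesothelial cells in the subunit result was not tested.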

How the data were processed

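RNA sequencing counts per gene were taken as deposited. The authors made them from reads aligned with TopHat2 (submitters' processing notes, which name rn5; the table's positions are those of rn6, as in the methods); the counter's strand setting was not given in the sources used here. The table holds 9 libraries, 3 per group, with 17591916 to 30299032 counts each.

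Counts were scaled by TMM and tested with edgeR 4.0.16 (R 4.3.3; quasi-likelihood, all 9 libraries, no covariate, low counts removed by filterByExpr, Benjamini-Hochberg over 14770 genes). DEGs had a fold change over 2 and an adjusted p under 0.05. The alternatives were DESeq2 1.42.0, other scalings, no filter, 2 groups alone, a replicate block and leaving out each library, and the code was tested on simulated data. Members and lists were chosen with earlier results of these data known. Named genes were the 5 called members with the largest change each way per comparison, all DEGs, the core, isoform, complex II and left-out genes, and up to 3 called genes of each other list with the largest change. Uqcrc1, Ndufv3, Uqcrh, Cox6c, Cox7c, Ndufb3, Uqcr11, Shmt2 and the tRNA rows were chosen after their values were seen. Another gene of the rule is not reported here. Planned tests of mitochondrial subunit genes had no rows to run on. An exact permutation test of 3 against 3 cannot go below p = 0.1.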

Additional observations from a re-analysis of the deposited data

How the results depend on the processing

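With total counts and no TMM, 7 subunit genes were higher and 8 lower in EASCs against SASCs, 10 and 4 in PASCs against SASCs, and 0 and 0 in EASCs against PASCs. Of all genes tested, 15.3% were higher and 46.7% lower, 16.0% and 42.9%, and 7.64% and 7.14% in the same order. Of all called members, scaling by total counts changed the sign of 26, 9 and 0. Among the named genes it reversed, in EASCs against SASCs, Atp5i (-0.11), Cox4i1 (-0.14), Cox7a2 (-0.011), Cox7a2l (-0.17), Cox8a (-0.12), Cycs (-0.19), Ndufa4 (-0.069), Ndufb2 (-0.0070), Ndufc1 (-0.067), Ndufs1 (-0.19), Ndufs7 (-0.16), Ndufv1 (-0.10), Sdhb (-0.19) and Usmg5 (-0.024), and, in PASCs against SASCs, Cycs (-0.082), Ndufs1 (-0.15) and Sdhd (-0.051). Under it the median of all genes stood at -0.39, -0.33 and -0.08. With total counts without rRNA genes, chosen after seeing the data, the counts were 44 higher and 5 lower, 58 and 1, and 1 and 27. All genes tested then gave 29.7% higher and 40.1% lower, 31.6% and 37.7%, and 13.5% and 19.7%. At an adjusted p under 0.01, 1 was higher and 3 were lower in EASCs against PASCs. The causes were not tested.

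Leaving out 1 library at a time, EASCs against SASCs gave 51 to 58 higher and 0 to 1 lower (1 without EASCs replicate 1), PASCs against SASCs 57 to 63 higher and 0 lower, and EASCs against PASCs 1 to 2 higher and 3 to 15 lower among the libraries of those groups, with 16 lower without SASCs replicate 3. DESeq2 gave 54, 61 and 2 genes higher and 0, 0 and 11 lower. With a replicate block the counts were 58, 61 and 2 higher and 0, 0 and 16 lower. Same-numbered libraries did not deviate together (correlations -0.035 to 0.038). With 3 libraries per group of unnamed source, this cannot settle whether the numbers pair the samples. Mitochondrial subunit genes gave no values under any setting, and the ratio without the most abundant genes was run only without Atp5b. With 3 counts at 0.104 to 0.159 CPM, depth limits only the genes near 0.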
